A study of Mus musculus with 6 samples.

Results

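Vascular smooth muscle cells and pericytes, together called mural cells, were followed in skeletal muscle through 8 marker genes. The genes were chosen by name: Acta2, Myh11, Tagln, Cnn1 and Lmod1 for the contractile apparatus of smooth muscle, and Pdgfrb, Rgs5 and Notch3 for pericytes and the receptors of mural cells. All 8 were found among the 55416 genes of the count table, and 7 of the 8 passed the filter on low counts, as did 15623 genes in all. Cnn1 did not pass it.

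RNA was sequenced from tibialis anterior (TA) muscle of 3 WT and 3 SELENOW KO mice aged 24 months, and the comparison asked how muscle of aged mice differed when SELENOW was lost. Per the study's methods aged mice were male and both lines were kept on a C57BL/6N background. The KO line was made with CRISPR-Cas9 by removing exon 4 of the gene. The count totals were 25351976, 29111213 and 25398186 counts in the WT libraries and 27815342, 27345022 and 27637175 in the KO libraries. By these totals alone, 3 counts corresponded to a CPM (the count scaled to a common library size) of 0.103 to 0.118. The CPM values below are also scaled for RNA composition. Values per library are given here in the order of the replicate numbers 1, 2 and 3. The study gives its n for these data in mice, whereas the labels do not say whether each library came from a separate animal. The p-values weigh the difference between the groups against the spread between these samples.

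Mural cells wrap the endothelial tube of blood vessels. Smooth muscle cells ring arteries and veins and contract through smooth muscle actin and myosin, whereas pericytes lie along capillaries within the basement membrane. Endothelial PDGF-B recruits them through the receptor PDGFRB, and Notch ligands on the endothelium keep arterial smooth muscle differentiated through NOTCH3. In skeletal muscle they regulate the flow of blood to the fibers and the stability of the capillary bed. In RNA from a whole muscle, fewer mural cells and less RNA per mural cell cannot be told apart.

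The targeted gene was examined first. Selenow, which encodes a small selenoprotein abundant in muscle, had CPM values, scaled by TMM factors for RNA composition, of 268, 244 and 219 in the WT and 193, 212 and 210 in the KO libraries. All KO values were below all WT values, at a log2 fold change of -0.25 ± 0.14 (SE; p adjusted by Benjamini-Hochberg = 0.604 in the quasi-likelihood test of edgeR). The counts are per gene, so the loss of exon 4 itself was not measured.

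Among the 7 tested members, 6 had a positive log2 fold change in KO muscle, with a median of 0.40, against a median of -0.0042 over all tested genes, of which 49.4% were above 0. At an unadjusted p under 0.05 with a fold change over 1.5 or under 0.7, the thresholds of the study, 2 members were higher in KO muscle, Myh11 and Rgs5, where 2.21% of all tested genes were higher. None of the members was lower, where 3.14% of all tested genes were. In the quasi-likelihood test of edgeR no member reached an adjusted p under 0.05, and 0% of all tested genes did, although 1545 genes had an unadjusted p under 0.05, among them 3 members. DESeq2 gave 45 genes an adjusted p under 0.05, among them Rgs5 (adjusted p = 0.0394). The lowest adjusted p of a member in edgeR's quasi-likelihood test was 0.299. Over the alternatives, all but DESeq2 run with that same test, the lowest was 0.000526 to 0.408. The value of 0.000526 came with no filter, where Rgs5 and Myh11 had an adjusted p under 0.05. All 3 KO libraries lay above all 3 WT libraries for 4 members, Myh11, Tagln, Pdgfrb and Rgs5, as they did for 7.53% of all tested genes. No member had all KO libraries below the WT libraries, as 7.87% of all tested genes had. With scaling by library totals instead of TMM, 2 members, Myh11 and Rgs5, lay above in this way, beside 1.55% of all tested genes. None lay below on that scale, beside 24% of all tested genes. For a single gene in 3 against 3 libraries, an exact two-sided permutation test cannot give a p under 0.1.

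**Figure D1:**
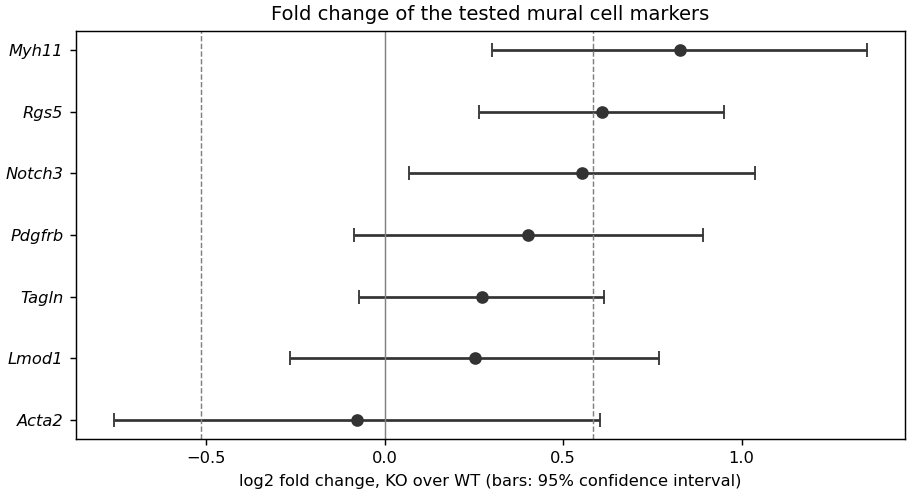
Log2 fold change of each tested member in KO over WT muscle with its 95% confidence interval; dashed lines mark a fold change of 1.5 and 0.7. Myh11 at 0.83 and Rgs5 at 0.61 passed the thresholds, and Acta2 at -0.08 was the member below 0.

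The contractile genes were examined in turn, and differences between them were not tested. Myh11 (ENSMUSG00000018830, chromosome 16 from 14012399 to 14109236 on the minus strand, GRCm39) encodes the myosin heavy chain of smooth muscle, the motor that pulls on actin. Its TMM-scaled CPM was 9.32, 8.15 and 5.63 in the WT libraries and 14.6, 16.6 and 9.64 in the KO libraries, from 171 to 408 counts per library. Every KO library was above every WT library, but KO replicate 3 lay close to WT replicate 1. Group means (± SD, n = 3) were 7.70 ± 1.89 for WT and 13.6 ± 3.60 for KO. The log2 fold change was 0.83 (95% confidence interval 0.30 to 1.35), a fold change of 1.77, with an adjusted p of 0.331 in edgeR's quasi-likelihood test with Benjamini-Hochberg adjustment. It passed the study's thresholds with each of the 6 libraries left out in turn, at log2 fold changes of 0.64 to 1.03.

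Acta2 (ENSMUSG00000035783, chromosome 19 from 34218490 to 34232990 on the minus strand, GRCm39) encodes the smooth muscle actin on which that myosin pulls. Its promoter is shown because serum response factor (SRF), the regulator of smooth muscle genes, binds CArG boxes, and it is set beside the promoter of Rgs5, the most abundant member, in which the same search found none. The 250 bases before the start, from RefSeq on build GRCm38.p6, lie at chr19:34255374-34255623 on the minus strand for Acta2 and at chr1:169655251-169655500 on the plus strand for Rgs5. Capitals mark CArG boxes in which 1 of the inner bases is other than A or T.
Acta2: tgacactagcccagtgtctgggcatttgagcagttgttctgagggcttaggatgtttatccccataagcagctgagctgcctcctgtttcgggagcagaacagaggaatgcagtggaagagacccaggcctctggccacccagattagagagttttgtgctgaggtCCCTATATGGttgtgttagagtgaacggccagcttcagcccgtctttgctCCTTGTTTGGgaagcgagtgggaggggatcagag
Rgs5: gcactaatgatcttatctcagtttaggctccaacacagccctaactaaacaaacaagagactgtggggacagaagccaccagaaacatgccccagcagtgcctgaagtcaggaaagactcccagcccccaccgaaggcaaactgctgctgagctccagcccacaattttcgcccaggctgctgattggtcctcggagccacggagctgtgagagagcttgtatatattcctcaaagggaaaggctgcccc
The Acta2 promoter held 2 such boxes, at 84 to 75 and at 34 to 25 bases before the start. It also held the RBPJ core TGGGAA, the site through which Notch acts, at 27 to 22 bases before the start, overlapping the nearer CArG box. Both strands were searched. Promoters were matched for 5 of the 8 members, and those of Rgs5, Cnn1, Lmod1 and Notch3 had neither motif in this window. Those of Myh11, Tagln and Pdgfrb were not matched. Of 32851 promoters of the same length, 7.24% held a CArG box with 1 such base, 1.47% a CArG box without one, and 21.6% the RBPJ core; 0.67% held at least 2 CArG boxes of either form. The form with 1 such base was chosen after the data were seen. These are matches of letters, and no binding was measured.

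The TMM-scaled CPM of Acta2 was 12.0, 5.91 and 13.8 in the WT libraries and 10.7, 10.8 and 8.52 in the KO libraries. The WT libraries held both the highest and the lowest value, and the KO libraries lay between them. Its log2 fold change was -0.08 (95% confidence interval -0.76 to 0.60; adjusted p = 0.951 in the quasi-likelihood test of edgeR). Its sign changed without WT replicate 1 (0.025), WT replicate 3 (0.16) or KO replicate 3 (0.028), so no direction can be given for Acta2.

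Tagln (ENSMUSG00000032085, chromosome 9 from 45840917 to 45847356 on the minus strand, GRCm39) encodes transgelin, an actin-binding protein of smooth muscle. It had a TMM-scaled CPM of 5.15, 5.29 and 4.61 in the WT libraries and 6.32, 6.31 and 5.53 in the KO libraries. All KO values were above all WT values, by a narrow margin between KO replicate 3 and WT replicate 2. The log2 fold change of 0.27 had a 95% confidence interval from -0.07 to 0.61 (adjusted p = 0.609, edgeR's quasi-likelihood test), so the difference did not pass the test.

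Lmod1 (ENSMUSG00000048096, chromosome 1 from 135252545 to 135295803 on the plus strand, GRCm39) encodes leiomodin 1, which nucleates actin filaments in smooth muscle. Its TMM-scaled CPM was 2.84, 2.77 and 1.74 in the WT libraries and 2.98, 2.73 and 3.03 in the KO libraries. The groups overlapped, and WT replicate 3 was the low library. Lmod1 had a log2 fold change of 0.25 (95% confidence interval -0.27 to 0.77; adjusted p = 0.755 in the quasi-likelihood test of edgeR), and of 0.05 without WT replicate 3.

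Cnn1 (ENSMUSG00000001349, chromosome 9 from 22010512 to 22020926 on the plus strand, GRCm39) encodes calponin 1, which binds actin and restrains myosin. It had 5, 9 and 2 counts in the WT libraries and 13, 4 and 1 in the KO libraries. The KO libraries held both the highest and the lowest value, and at this depth a difference was not detectable. Without the filter its log2 fold change was 0.36 with a standard error of 0.74.

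Of the contractile members, 4 of 5 were thus tested, 3 had a positive log2 fold change and 1 was called, with a median of 0.26. The 3 pericyte and receptor members were all tested and all positive, with a median log2 fold change of 0.55, and 1 was called. Both called genes were higher, as were 2.21% of all tested genes. Whether the 2 sets of members differed was not tested.

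Rgs5 (ENSMUSG00000026678, chromosome 1 from 169483070 to 169523382 on the plus strand, GRCm39) encodes a regulator of G protein signaling that damps the response of mural cells to vasoconstrictors, and it is a marker of pericytes. Its TMM-scaled CPM was 150, 122 and 125 in the WT libraries and 191, 236 and 179 in the KO libraries, from 3706 to 5798 counts per library. The KO libraries were all above the WT libraries, with KO replicate 2 the highest of the 6. Group means (± SD, n = 3) were 132 ± 15.4 for WT and 202 ± 30.2 for KO. The log2 fold change was 0.61 (95% confidence interval 0.27 to 0.95; adjusted p = 0.299 in the Benjamini-Hochberg adjusted quasi-likelihood test of edgeR). The fold change of 1.52 was just past the threshold of 1.5, and it fell short of it without WT replicate 2 (log2 fold change 0.56), without WT replicate 3 (0.57) and without KO replicate 2 (0.48). With scaling by library totals instead of TMM it was 0.37 (unadjusted p = 0.0542) and not called.

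Notch3 (ENSMUSG00000038146, chromosome 17 from 32339794 to 32385826 on the minus strand, GRCm39) encodes the Notch receptor of mural cells. It had a TMM-scaled CPM of 4.78, 2.74 and 3.68 in the WT libraries and 6.40, 5.38 and 4.60 in the KO libraries. KO replicate 3 was below WT replicate 1, so the groups overlapped. Its log2 fold change was 0.55 (95% confidence interval 0.07 to 1.04; unadjusted p = 0.0288, adjusted p = 0.456 in the quasi-likelihood test of edgeR). Its fold change of 1.47 was just short of the threshold, which it passed without WT replicate 1 (log2 fold change 0.77) or without KO replicate 3 (0.66), and it was at 0.37 without WT replicate 2.

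Pdgfrb (ENSMUSG00000024620, chromosome 18 from 61178222 to 61218133 on the plus strand, GRCm39) encodes the PDGF receptor through which mural cells are recruited. Its TMM-scaled CPM was 8.14, 4.17 and 7.73 in the WT libraries and 8.53, 9.24 and 8.63 in the KO libraries. All KO libraries were above the WT libraries, although WT replicates 1 and 3 were close to them and WT replicate 2 was far lower. Between the groups the log2 fold change was 0.40 (95% confidence interval -0.09 to 0.89; adjusted p = 0.599 in the quasi-likelihood test of edgeR). It was 0.15 without WT replicate 2.

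**Figure D2:**
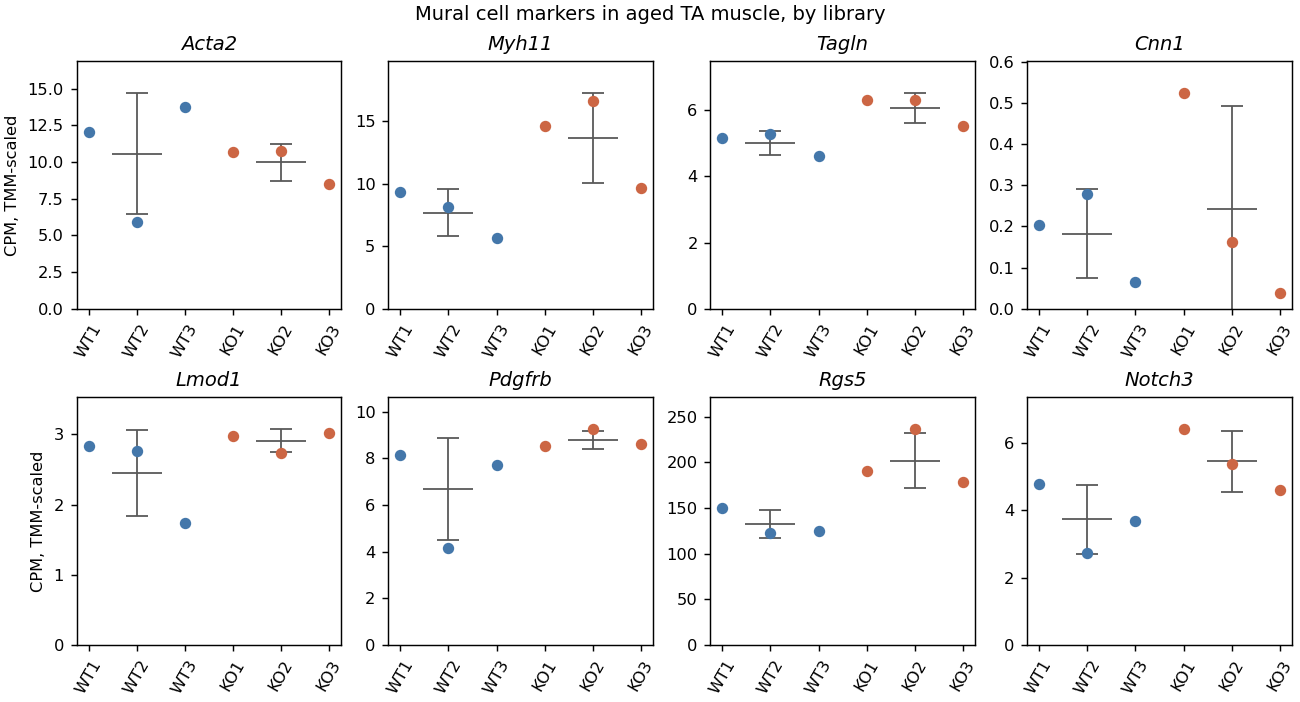
TMM-scaled CPM of the 8 members in each library, with points for libraries and grey marks for the group mean and SD (n = 3; the lower SD bar of Cnn1 in KO is truncated at 0). Rgs5 ran from 122 to 150 in WT and from 179 to 236 in KO, whereas the values of Acta2, Cnn1, Lmod1 and Notch3 overlapped between the groups.

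Levels were compared between genes per kb of counted gene length. Values are means ± SD of 3 libraries. In WT muscle Rgs5 was highest, at a CPM per kb of 29.1 ± 3.39, followed by Acta2 at 4.81 ± 1.88 and Tagln at 2.52 ± 0.181. Pdgfrb at 1.22 ± 0.399 and Myh11 at 1.01 ± 0.248 differed by less than the SD of either. Lmod1 was at 0.620 ± 0.155 and Notch3 at 0.462 ± 0.126, a difference just larger than either SD. Cnn1 was lowest at 0.0668 ± 0.0396. In KO muscle Myh11 stood at a CPM per kb of 1.79 ± 0.473 and Pdgfrb at 1.61 ± 0.0706, a difference smaller than the SD of Myh11 but larger than that of Pdgfrb. Rgs5 was again highest at 44.4 ± 6.65, followed by Acta2 at 4.55 ± 0.581 and Tagln at 3.04 ± 0.228.

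The summed CPM of the 8 members was 193, 152 and 162 in the WT libraries and 241, 287 and 219 in the KO libraries. Rgs5 made up 77.0% to 82.2% of it in every library, so this sum followed mainly Rgs5. Without Rgs5 the summed CPM was 42.5, 29.3 and 37.2 in WT and 50.1, 51.2 and 40.0 in KO, and here KO replicate 3 was below WT replicate 1.

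To read the members as an index of mural cells in each library with equal weight, their mean was taken. This index, the mean of their log2 CPM minus the WT mean, was 0.26, -0.10 and -0.16 in the WT libraries and 0.62, 0.46 and 0.05 in the KO libraries. The KO mean was 0.38 above the WT mean, or 0.14 above it with scaling by library totals instead of TMM. With TMM the SD was 0.22 in WT and 0.29 in KO, and KO replicate 3 was below WT replicate 1. Without Cnn1, which had 1 to 13 counts, the index was 0.26, -0.21 and -0.04 in WT and 0.49, 0.53 and 0.26 in KO, and KO replicate 3 and WT replicate 1 were then level. The lowest library was WT replicate 2 for 4 members and WT replicate 3 for 3, and the highest was KO replicate 1 for 3 members and KO replicate 2 for 3.

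**Figure D3:**
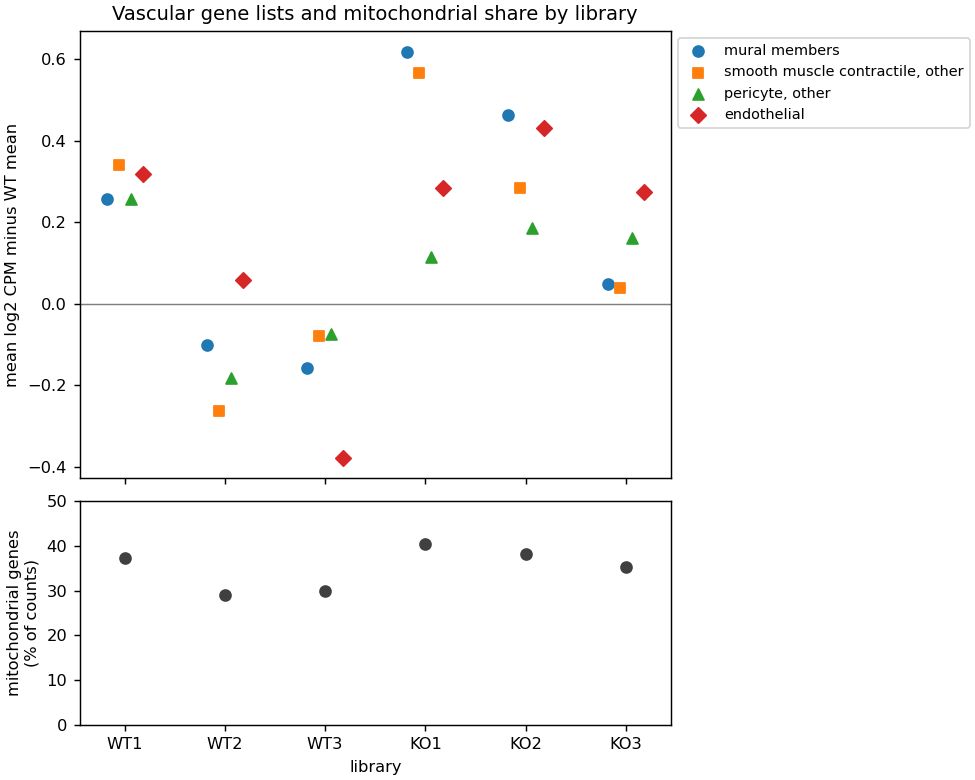
Mean log2 CPM minus its WT mean for the mural members and for the lists of other smooth muscle, other pericyte and endothelial genes in each library (top), and the percent of counts from mitochondrial genes (bottom). The mural index was 0.26, -0.10 and -0.16 in WT and 0.62, 0.46 and 0.05 in KO replicates 1, 2 and 3. It held all 8 members, with the untested Cnn1 among them, whereas the other lists held only their tested genes.

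The genes most like this index over the 6 libraries, by the root mean square difference of centred log2 CPM among 7891 tested genes with a mean CPM of at least 5, were Hdac7 (0.0560), Mylk (0.0771), mt-Cytb (0.0918), Inpp5b (0.0922) and ENSMUSG00002076852, which had no symbol (0.0931). The median over the 7891 genes was 0.344. The index used here included Cnn1, which had 1 to 13 counts. Leaving Cnn1 out moved the index from 0.62 to 0.49 in KO replicate 1 and from 0.05 to 0.26 in KO replicate 3. These moves were larger than the distances of the named genes. The likeness was not computed without Cnn1, so how far this order depends on Cnn1 was not tested. Hdac7 encodes a histone deacetylase and had a CPM of 6.32, 4.94 and 4.34 in WT and 7.97, 7.49 and 5.64 in KO replicates 1, 2 and 3. Of the members, Tagln (0.169), Notch3 (0.189) and Rgs5 (0.198) were nearest to the index and Cnn1 (0.835) was farthest.

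Other genes of mural cells were examined as lists, and the gene with the highest CPM of a list is named by its mean over all libraries, with no correction for length. Of 14 further smooth muscle genes, 10 were tested and 7 had a positive log2 fold change, with a median of 0.20. The list held contractile genes, such as Smtn and Mylk, and other genes of these cells. The 2 that were higher in KO muscle, Itga8 and Sncg, are not contractile genes. Itga8, an integrin subunit of smooth muscle, had a CPM of 0.284, 0.311 and 0.395 in WT and 1.25, 0.611 and 0.486 in KO replicates 1, 2 and 3. These values came from 7, 10 and 12 counts in WT and 31, 15 and 13 in KO. The groups did not overlap, but KO replicate 3 was just above WT replicate 3. KO replicate 1 was far above the rest (log2 fold change 1.22 ± 0.48 SE, adjusted p = 0.443 in the quasi-likelihood test of edgeR). Sncg, which encodes gamma-synuclein, had a CPM of 1.46, 0.622 and 0.592 in WT and 1.61, 1.63 and 1.49 in KO, where KO replicate 3 was just above WT replicate 1. Its log2 fold change was 0.84 ± 0.37 (SE; adjusted p = 0.491 in the quasi-likelihood test of edgeR). Smtn, which had the highest CPM of the list, encodes smoothelin and had a log2 fold change of 0.22 ± 0.20 (SE). Mylk, the kinase that activates smooth muscle myosin, had a CPM of 8.02, 7.31 and 6.88 in WT and 11.1, 10.7 and 7.88 in KO, a log2 fold change of 0.42 (unadjusted p = 0.0237) that was under the fold change threshold. Myocd, the cofactor of SRF that defines smooth muscle, had at most 3 counts in every library.

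Of 16 further pericyte genes 15 were tested and 13 had a positive log2 fold change, with a median of 0.22. The called gene was Gucy1a1, a subunit of the nitric oxide receptor of mural cells, at a CPM of 3.97, 2.80 and 2.90 in WT and 5.15, 4.68 and 5.27 in KO replicates 1, 2 and 3. All KO libraries were above the WT libraries (log2 fold change 0.65 ± 0.20 SE, adjusted p = 0.331 in the quasi-likelihood test of edgeR). The log2 fold changes of the list ran from -0.94 for Cox4i2, a subunit of cytochrome c oxidase, to 0.65 for Gucy1a1. Abcc9, which encodes a subunit of the potassium channel of pericytes and had the highest CPM of the list, was at a log2 fold change of 0.16 ± 0.16 (SE) and overlapped. Muscle fibers express Abcc9 as well. Over both lists, 3 of 25 tested genes were higher and 0 were lower, where 2.21% and 3.14% of all tested genes were. None of the 3 was called under scaling by library totals or without WT replicate 2, and 1 was called without WT replicate 3 or without KO replicate 1. Sncg was not called by DESeq2. With at least 10 counts required in every library Itga8 was not tested, since it had 7 counts in WT replicate 1.

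**Figure D4:**
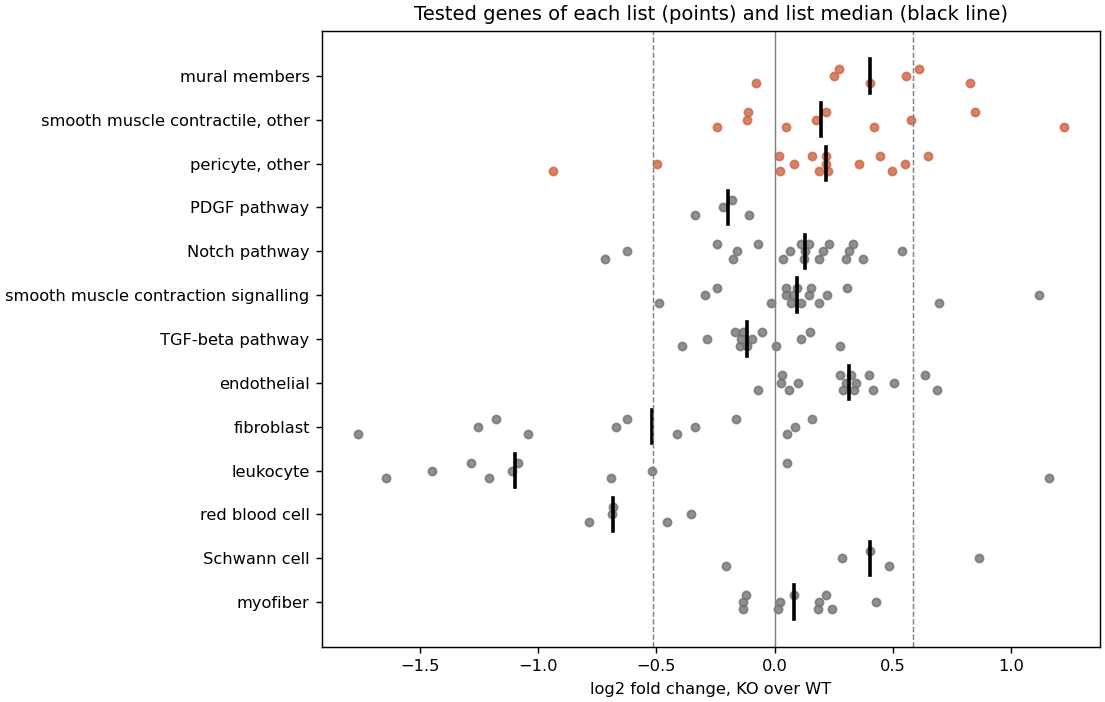
Log2 fold change in KO over WT muscle of the tested genes of the mural lists and of the main pathway and cell marker lists, with 1 point per gene and a black line for the list median; dashed lines mark a fold change of 1.5 and 0.7. The medians were 0.40 for the mural members, 0.31 for endothelial genes and -1.10 for leukocyte genes.

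The pathways that act on the members were next examined. Of the ligands and the other receptor of PDGF signaling, 4 of 5 genes were tested, 0 were positive, the median log2 fold change was -0.20, and none was called. Pdgfb, the ligand of the receptor that Pdgfrb encodes, had a log2 fold change of -0.11 ± 0.22 (SE), and Pdgfa, with the highest CPM, -0.22 ± 0.15 (SE). In the Notch pathway 14 of 20 tested genes were positive, with a median of 0.13, and 1 was called, in the lower direction, a share near the 3.14% of all tested genes that were lower. This was Hes1, a transcriptional repressor induced by Notch, at a CPM of 10, 5.29 and 4.70 in WT and 4.18, 4.60 and 4.11 in KO replicates 1, 2 and 3. WT replicate 1 was far above the other libraries, and the remaining WT libraries were just above the KO libraries (log2 fold change -0.62 ± 0.27 SE, adjusted p = 0.490 in the quasi-likelihood test of edgeR). The log2 fold changes of the list ran from -0.72 for Mfng, which modifies Notch receptors with sugar, to 0.54 for Hey1, a Notch target. Rbpj, the DNA-binding factor of the pathway and the gene with its highest CPM, was at -0.16 ± 0.16 (SE).

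Of the SRF and myocardin factors, 3 of 4 were tested, 2 were positive, the median log2 fold change was 0.10, and none was called. Mrtfb, which carries actin signals to SRF and had the highest CPM of the list, although per kb Srf was higher, had a log2 fold change of 0.31 ± 0.12 (SE), and Srf -0.15 ± 0.13 (SE). In the TGF-beta pathway, which drives contractile genes of smooth muscle, 4 of 13 genes were positive, the median was -0.12, and none was called; Smad3, with the highest CPM, had a log2 fold change of -0.12 ± 0.19 (SE). Among 19 genes of contraction signaling 17 were tested, 13 were positive, the median was 0.09, and 1 was higher, where 2.21% of all tested genes were. It was Agtr1a, the angiotensin receptor, at a CPM of 0.648, 0.560 and 0.526 in WT and 0.885, 1.38 and 1.49 in KO replicates 1, 2 and 3. Its groups did not overlap (log2 fold change 1.12 ± 0.36 SE, adjusted p = 0.344 in the quasi-likelihood test of edgeR).

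Of 21 paralogs of the members 18 were tested, 5 were positive, the median log2 fold change was -0.10, and none was called. Some of these genes, such as Notch1 and Rgs4, also stood in other lists. Acta1, the actin of skeletal muscle fibers, had a mean CPM (± SD, n = 3) of 12430 ± 1900 for WT and 11343 ± 1061 for KO, which overlapped; its log2 fold change was -0.13 ± 0.18 (SE). Actc1, the cardiac actin, had a CPM of 69.7, 57.2 and 120 in WT and 57.1, 51.5 and 14.5 in KO. KO replicate 1 was just below WT replicate 2 and KO replicate 3 was far lower, at a log2 fold change of -1.0 ± 0.62 (SE; adjusted p = 0.664 in the quasi-likelihood test of edgeR). The coding sequences of these actins are nearly the same as that of Acta2, and the handling of reads that map to several genes was not given in the sources used here. The low counts of Acta2 beside those of Acta1 are therefore uncertain.

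Markers of other cells in the muscle also differed between the libraries, and their part in the differences of the mural genes was not tested. Of 16 endothelial genes, all tested, 15 were positive, the median log2 fold change was 0.31, and 2 were higher in KO muscle, Erg and Sox17, while none was lower, where 2.21% and 3.14% of all tested genes were. Neither was called with library totals or without WT replicate 3. Erg, a transcription factor of endothelium, had a CPM of 3.12, 3.08 and 2.47 in WT and 4.31, 5.17 and 4.0 in KO replicates 1, 2 and 3 (log2 fold change 0.64 ± 0.20 SE). Sox17, a factor of arterial endothelium, had a log2 fold change of 0.69 ± 0.28 (SE), and Flt1, a VEGF receptor and the gene with the highest CPM, 0.41 ± 0.13 (SE). All KO libraries lay above all WT libraries for these 3 genes, Cdh5 and Ptprb, as they did for 7.53% of all tested genes. The summed CPM of the list was 196, 163 and 127 in WT and 194, 215 and 189 in KO replicates 1, 2 and 3, so WT replicate 1 overlapped the KO libraries, as it did for the mural index.

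Fibroblast and leukocyte genes had their highest summed CPM in WT replicate 3. The summed CPM of 12 fibroblast genes was 163, 87.6 and 308 in WT and 165, 75.9 and 126 in KO replicates 1, 2 and 3; 3 of the 12 were positive, the median log2 fold change was -0.52, and none was called. The summed CPM of the 10 tested of 12 leukocyte genes was 30.8, 19.7 and 70.3 in WT and 29.4, 19.6 and 16.1 in KO. Of these 10, 2 were positive, the median was -1.10, 1 was higher, Cd3e (log2 fold change 1.16), and 2 were lower, Csf1r (-0.69) and S100a9 (-1.64), where 2.21% of all tested genes were higher and 3.14% lower. The genes with the highest CPM of these lists were Dcn (log2 fold change -0.16) and Lyz2 (-1.45). The 5 red blood cell genes were all negative, with a median of -0.68, and 2 were lower, Hbb-bs (log2 fold change -0.68) and Hbb-bt (-0.69), beside the same 3.14%. Their summed CPM of 205, 293 and 174 in WT was above the 155, 165 and 142 in KO. Hemoglobin genes share near-identical copies and are uncertain in the same way as the actins. The part of these lists in the mural result was not tested.

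In the remaining lists none was called. The medians were 0.19 for 2 of 7 adipocyte genes (highest CPM, Fabp4), 0.40 for 5 of 8 Schwann cell genes (Pmp22), -0.41 for 3 of 6 tenocyte genes (Thbs4) and 0.08 for 11 of 11 genes of muscle fibers (Myh4). Among the defining markers, Adipoq, Plin1, Tnmd and Sox10 were too low to test. No gene of any list was at 0 in every library. Lep of the adipocyte list and Adra1b of contraction signaling had at most 3 counts in every library.

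The share of counts from mitochondrial genes was 37.3%, 29.1% and 29.8% in WT and 40.3%, 38.2% and 35.4% in KO replicates 1, 2 and 3. The order of the libraries resembled that of the mural index in that WT replicate 1 lay among the KO libraries. The TMM factors were 0.974, 1.10 and 1.20 in WT and 0.894, 0.898 and 0.968 in KO, so all KO factors were below all WT factors. The part of either in the result was not tested beyond the scaling alternatives. Leaving out the mitochondrial genes gave an index difference of 0.38.

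Scaling by library totals instead of TMM moved the median log2 fold change of all genes by -0.25. The split of called genes was 345 higher and 491 lower (41.3% higher) with TMM and 80 higher and 1709 lower (4.47% higher) with library totals. Relative to the median of all genes, the members with library totals were at 0.84 for Myh11, 0.62 for Rgs5, 0.56 for Notch3, 0.41 for Pdgfrb, 0.28 for Tagln, 0.27 for Lmod1 and -0.08 for Acta2. Library totals shift all genes nearly alike, so these values lie near those with TMM by construction. Not corrected for that shift, Myh11 was at 0.59 and still called, Rgs5 at 0.37 and no longer called, Notch3 at 0.31, Pdgfrb at 0.16, Tagln at 0.03, Lmod1 at 0.02 and Acta2 at -0.33, and 2 of the 4 members without overlap, Myh11 and Rgs5, still did not overlap. On that scale all KO libraries lay above all WT libraries for 1.55% and below them for 24% of all tested genes, and 0.512% were called higher and 10.9% lower. The index difference was 0.14 on that scale.

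**Figure D5:**
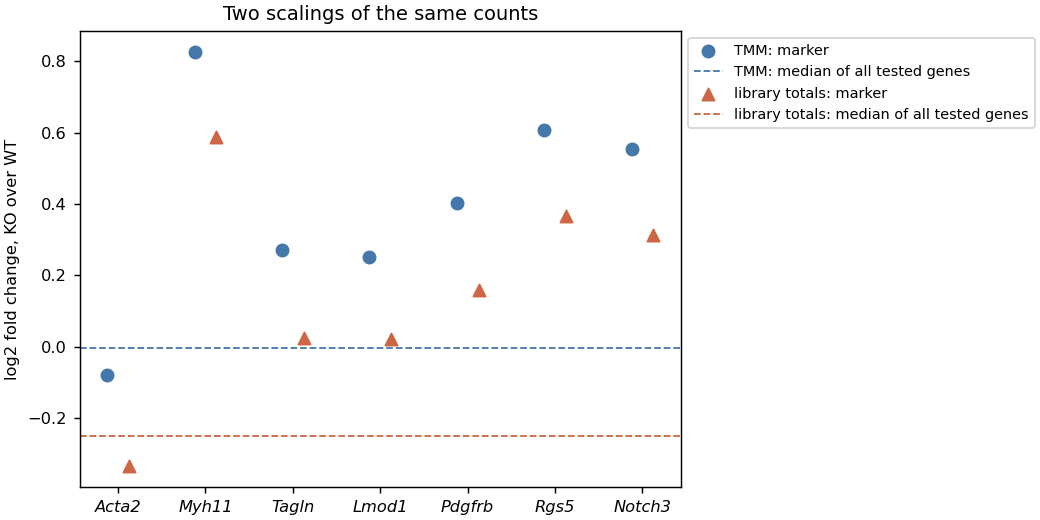
Log2 fold change of each tested member in KO over WT muscle with TMM scaling (circles) and with library totals (triangles), with dashed lines at the median of all tested genes under each. Under library totals the median of all genes was at -0.25, Myh11 at 0.59 and Rgs5 at 0.37.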

How the data were processed

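TA muscle RNA of 3 WT and 3 KO mice was sequenced. The raw counts of 55416 genes were deposited by the authors without normalization, after alignment of the reads by HISAT2 2.1.0 and counting by featureCounts 1.6. The submitters' processing notes name GRCm39 and the study's methods GRCm38. None of the 8 members had the start and end of GENCODE M21 (GRCm38), so the positions of the deposited table are given as GRCm39, and promoter positions as RefSeq's GRCm38.p6. The WT count column without a number was taken as replicate 1, since the others are numbered 2 and 3. Symbols were matched by Ensembl identifier for 52083 genes. Strand handling was not given in the sources used here, so overlapping genes are uncertain.

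Counts were filtered with filterByExpr, scaled by TMM and tested with edgeR's quasi-likelihood test (version 4.0.16, R 4.3.3, limma 3.58.1, robust estimation, no covariate), with Benjamini-Hochberg adjustment over 15623 genes. CPM values are TMM-scaled, and the index used a prior count of 1. The floor of 3 counts covers counting error only. The steps were tested on simulated data. Within a group, counts of every pair of libraries differed by more than sampling noise (chi-square per degree of freedom 21.0 to 79.3).

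Named genes were Selenow, the members, Acta1 and Actc1, in each list the genes past the thresholds (at most 4, by p) and the gene with the highest mean CPM, and the 5 genes most like the index; 1 gene that this rule names is not reported here. Other genes named, such as Cox4i2, Mfng, Hey1, Pdgfb, Srf, Cdh5 and Ptprb, were chosen after their values were seen. The members and lists were chosen with earlier results of these data known. Alternatives were DESeq2 (version 1.42.0), its size factors, library totals, other filters, no robust estimation, mitochondrial genes left out, another fold change threshold, a prior count of 5, a replicate block, and each library or member left out. The counts of other mural and of endothelial genes under these alternatives were added after the data were seen.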

Additional observations from a re-analysis of the deposited data

How the results depend on the processing

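Of 98 log2 fold changes of tested members under alternatives, 89 kept their direction and their side of the thresholds, 4 lost the call, 2 gained it and 3 changed sign. Acta2 changed sign without WT replicate 1 (0.025), WT replicate 3 (0.16) and KO replicate 3 (0.028), and ran from -0.37 to 0.16 without each library. Rgs5 lost its call with library totals (0.37) and ran from 0.48 to 0.71 without each library. Notch3 gained a call without WT replicate 1 (0.77) or KO replicate 3 (0.66). Members called higher numbered 2, but 1 with library totals, 0 at an absolute log2 fold change over 1, and 1 to 3 without each library: only Myh11 without WT replicate 2, WT replicate 3 or KO replicate 2, and also Notch3 without WT replicate 1 or KO replicate 3. Members with all KO above all WT libraries numbered 4, but 2 with library totals, beside 7.53% and 1.55% of all tested genes. Other mural genes called higher numbered 3, but 0 with library totals and 0 to 3 without each library. Endothelial genes called higher numbered 2, but 0 with library totals and 0 to 4 without each library (0 without WT replicate 3, and 4 without WT replicate 1). Of all tested genes 2.21% were called higher with TMM and 0.512% with library totals. Over all genes 836 were called, against 1789 with library totals, 1780 with no filter, 315 at an absolute log2 fold change over 1, and 814 to 1071 without each library. An adjusted p under 0.05 was given to 0 genes by edgeR's quasi-likelihood test (1545 at an unadjusted p under 0.05), 45 by DESeq2, 54 with library totals, 363 with no filter (Rgs5 and Myh11 among them), 4 with at least 10 counts in every library, and 0 to 242 without each library. The index difference ran from 0.14 to 0.43 over 12 alternatives. The causes of these changes were not tested.

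WT and KO libraries share only a replicate number. Same-numbered libraries had correlations of their deviations of 0.06, 0.04 and -0.07, and not every library correlated best with its own number. With the replicate block 890 genes were called and 1 had an adjusted p under 0.05; the called members were again Myh11 and Rgs5.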
